A study of Mus musculus with 7 samples.

Results

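The transcripts of 10 cytokine genes were followed in tumour macrophages of mice with and without the proton-sensing receptor Gpr65. They were Tnf, Il6, Il10, Il12a, Il12b, Il23a, Il27, Ebi3, Osm and Lif. These 10 genes were taken by symbol from a table of 53379 genes, each symbol matched 1 row, and all 10 were protein coding. The 7 libraries came from macrophages sorted as CD45-, CD11b- and F4/80-positive cells from tumours of MC38, a colon carcinoma line of mouse, 21 days after implantation. All were C57BL/6J mice fed a high-fat diet, and each library was 1 mouse. Wild-type mice for Gpr65 gave 4 libraries and Gpr65 knockout mice gave 3. The age and sex of the mice, and whether the knockout covers all cells or one lineage, are not given in the sources used here. The labels spell the gene both as Gpr65 and as Grp65.

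These genes encode secreted proteins by which macrophages steer inflammation. TNF, shed from the cell surface by ADAM17, drives NF-kB through its receptors. IL-6, oncostatin M (Osm) and LIF signal through gp130 (Il6st) to STAT3. IL-12 family members are pairs of subunits: IL-12 joins p35 (Il12a) to p40 (Il12b), IL-23 joins p19 (Il23a) to p40, IL-27 joins p28 (Il27) to EBI3, and IL-35 joins p35 to EBI3. IL-10 acts through Il10ra and STAT3 to limit production of the others. GPR65 couples to cyclic AMP, a messenger known to lower TNF and IL-12 and to raise IL-10 in macrophages.

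Many cytokine mRNAs are short-lived because their 3′ untranslated regions carry AU-rich words bound by tristetraprolin (Zfp36), so the words of these members are shown first. The word TTATTTATT was searched on the transcript strand in the longest annotated 3′ untranslated region of each gene (GENCODE M21, GRCm38). It occurred in 5 of the 10 members, 5 times in Tnf, 2 times each in Il27 and Lif and 1 time each in Il12a and Il23a, with overlapping matches counted. Across 21100 protein-coding genes 7.59% held it, and 6.77% did among genes whose region was as long as those of the members. The 30 bases around the match nearest the stop codon were as follows, with the word in capitals.
Tnf: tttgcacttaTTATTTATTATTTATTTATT
Il27: tcttggatatTTATTTATTtttaagaaatg
Lif: aaaggggcctTTATTTATTatttaaaactt
Il12a: ctatttatatTTATTTATTttctatttatt
Il23a: tagatgatggTTATTTATTctatttataag
Il6, Il10, Il12b, Ebi3 and Osm had no match in these regions, although each held the shorter word ATTTA, between 1 time in Ebi3 and 10 times in Il6.

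Promoter windows of 250 bases before to 50 after the start site were read from RefSeq (GRCm38.p6) for the 6 members that matched, Tnf, Il6, Il12a (2 start sites), Il12b, Ebi3 and Lif. Il10, Il23a, Il27 and Osm had no entry. The NF-kB type word, GGGA then any 4 bases then CC, was searched on both strands and lay in the windows of Tnf, Il6, Ebi3, Lif and 1 of the Il12a start sites, against 20.7% of 32851 windows in the table. Il6 alone of the 6 held the cyclic AMP response half-site TGACG, also searched on both strands (20.8% of all windows), and Il6 and Lif held the AP-1 word TGANTCA (7.81% of all windows). None held the interferon response word, GAAA then any 2 bases then GAAA (3.44% of all windows). The windows of Tnf (chr17:35201958-35202257, minus strand) and Ebi3 (chr17:55952373-55952672, plus strand) are shown because their levels followed each other most closely among members. Il6 (chr5:30012864-30013163, plus strand) is shown as a low-level member with the same word. Capitals mark the NF-kB type word on either strand, and in Il6 the capitals join an overlapping match on each strand.
Tnf: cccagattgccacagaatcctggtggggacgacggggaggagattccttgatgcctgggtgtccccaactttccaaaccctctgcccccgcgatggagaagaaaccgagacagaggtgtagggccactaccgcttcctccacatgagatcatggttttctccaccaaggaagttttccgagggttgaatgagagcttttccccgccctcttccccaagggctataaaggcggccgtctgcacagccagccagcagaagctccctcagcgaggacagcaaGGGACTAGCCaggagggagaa
Ebi3: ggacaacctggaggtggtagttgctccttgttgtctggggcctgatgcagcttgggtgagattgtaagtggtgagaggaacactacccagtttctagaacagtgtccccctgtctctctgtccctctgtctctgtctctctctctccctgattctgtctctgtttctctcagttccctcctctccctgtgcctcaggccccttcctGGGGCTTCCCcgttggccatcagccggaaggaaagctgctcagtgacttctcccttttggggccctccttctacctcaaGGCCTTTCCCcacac
Il6: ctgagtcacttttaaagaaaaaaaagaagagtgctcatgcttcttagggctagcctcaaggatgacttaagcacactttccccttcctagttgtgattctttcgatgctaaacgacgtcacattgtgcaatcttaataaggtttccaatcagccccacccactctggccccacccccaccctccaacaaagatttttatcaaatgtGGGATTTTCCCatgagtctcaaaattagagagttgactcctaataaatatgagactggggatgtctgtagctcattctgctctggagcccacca
A match is a description of these letters and not a measured binding site.

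Total counts were between 22449772 and 30483733 per library. Gpr65 averaged 90.9 ± 19.4 CPM in wild-type (SD, n = 4) against 0.921 ± 0.215 CPM in knockout libraries (SD, n = 3; CPM are counts relative to library size, scaled by the trimmed mean of M values, TMM), so each library matched its label. The macrophage markers Adgre1, Itgam, Csf1r and Cd68 were present in each library, with means over the 7 libraries between 199 and 2529 CPM. The sum of all 11 macrophage markers (all tested, 9 with a positive fold change, none at 0) was 21834 to 26698 CPM in wild-type animals, and 21009, 40173 and 25446 CPM in knockouts 1 to 3. Knockout 2, where this sum was highest and the TMM factor lowest (0.807), was also the highest library for Tnf, Il27, Ebi3 and Il12b, and the part of this in their levels was not tested. Knockout 1 stood apart: 940 of the 16234 tested genes had 0 counts there, against 51 to 281 in the other libraries. Results that rest on it are therefore given with and without it.

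Of the 10 members 8 were detected, with a median of at least 10 counts, and 2 were near detection, Il12a with a median of 2 counts and Il23a with a median of 9. None was below detection, which was set at no more than 3 counts in any library. A library with 0 counts allows up to 3 counts, which was 0.0995 to 0.125 CPM here, for counting error only. Il6, Il10 and Il23a had 0 counts in 1 library each and Il12a in 2.

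Per kilobase of exon, Osm was far above the other members and made up 77.8% of their summed mean level. Its mean over the 7 libraries was 253 CPM per kb, above 98.4% of tested genes. Ebi3 (25.6 CPM per kb) and Tnf (24.3) came next, then Il27 (9.77), Il12b (8.06) and Il10 (3.34). Lif (0.570), Il6 (0.517), Il12a (0.231) and Il23a (0.126) were lowest. Osm was above Ebi3 in 7 of 7 libraries and Tnf above Il27 in 7 of 7. The other neighbours in this order changed places in at least 1 library: Ebi3 exceeded Tnf in 2 of 7, Il27 exceeded Il12b in 5, Il12b exceeded Il10 in 5, Il10 exceeded Lif in 6 and Lif exceeded Il6 in 6.

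**Figure D1:**
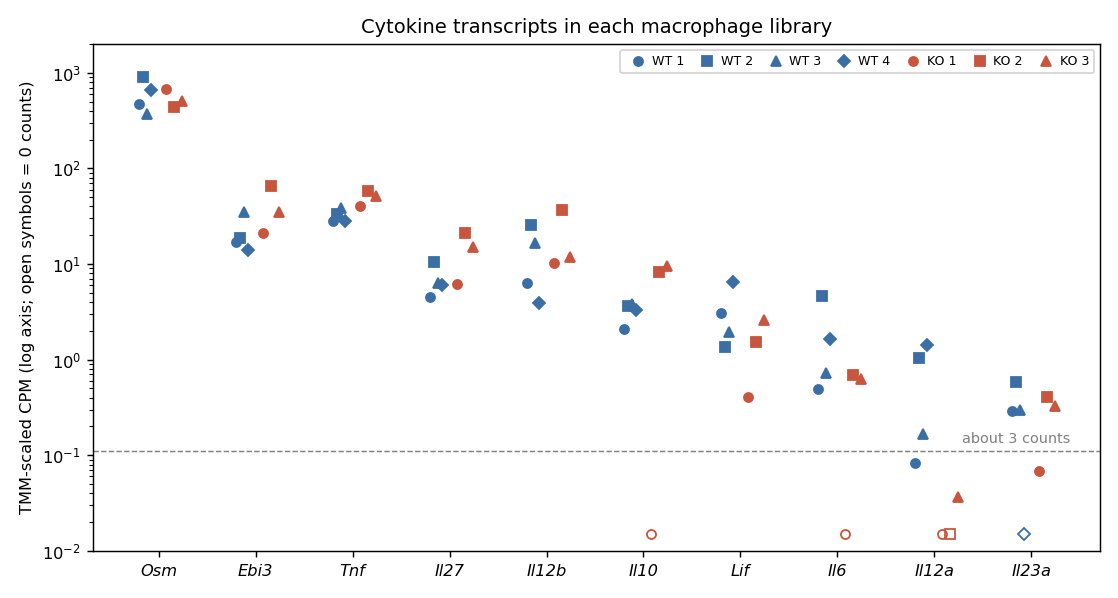
TMM-scaled CPM (vertical log axis) of the 10 cytokine genes in each library, ordered by level per kilobase; blue symbols are wild-type (WT) mice 1 to 4, red symbols knockout (KO) mice 1 to 3, open symbols 0 counts, and the dashed line about 3 counts. Osm lies between 372 and 909 CPM in all libraries, Tnf is the detected member whose red symbols all lie above the blue ones, and Il12a and Il23a reach the dashed line.

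Beside these levels, no member passed the test of knockout against wild-type mice. Of 10 members 8 passed the filter on low counts and were tested, 5 with a positive and 3 with a negative fold change, with a median log2 fold change of 0.61 against -0.0016 over all tested genes. In edgeR's quasi-likelihood test with Benjamini-Hochberg adjustment over all 16234 genes, 0 of the 8 had an adjusted p under 0.05, where 0.037% of all tested genes did. At an unadjusted p under 0.05 there were 3 members, Tnf, Il27 and Ebi3, against 5.37% of all tested genes. DESeq2 also called 0 members, with 5 of 10 at an unadjusted p under 0.05 (Tnf, Il27, Ebi3, Il6 and Il12a), and limma voom called 0 with the same 3 members as edgeR. The share of all genes at that unadjusted p was not taken for DESeq2 or limma voom. DESeq2 called 131 genes in all against 6 with edgeR, so its count of members cannot be read against the edgeR share. Without knockout 1, edgeR called 0 of 9 tested members (0.0825% of all genes). It then had 5 at an unadjusted p under 0.05, Tnf, Il10, Il27, Ebi3 and Il12a, against 9.8% of all genes. In bulk libraries of sorted cells, fewer cells making a transcript and less transcript per cell cannot be told apart.

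Tnf (chromosome 17, 35199381 to 35202007, minus strand, GRCm38), the gene of the main pro-inflammatory cytokine of activated macrophages, was the one tested member whose groups did not overlap. It stood at 28.5, 33.2, 38.4 and 28.2 CPM in wild-type animals 1 to 4, against 40.7, 57.4 and 52.1 CPM in knockout animals 1 to 3. Each knockout mouse was above each wild-type mouse, with knockout 1 only slightly above wild-type 3. The means were 32.1 ± 4.83 CPM (SD, n = 4) and 50.1 ± 8.53 CPM (SD, n = 3). Its log2 fold change came to 0.64 (SE 0.19, edgeR adjusted p = 0.75), and the two-sided exact permutation test gave p = 0.0286, the lowest value open to 35 splits. Groups that did not overlap, with knockout higher, were found in 2.8% of all tested genes. Lta and Ltb, the lymphotoxin genes beside Tnf, spread far more: Lta ran from 0.416 to 6.69 CPM in wild-type and from 0 to 6.58 CPM in knockout animals, and Ltb from 6.66 to 19.9 CPM and from 3.35 to 42.1 CPM.

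Markers of T cells, which also make TNF, differed in order from Tnf. Their summed level (11 of 11 genes tested, 9 with a positive fold change, none at 0 in all libraries) ran from 38.6 to 137 CPM in wild-type animals, and was 22.9, 77.7 and 525 CPM in knockouts 1 to 3. Tnf was highest in knockout 2, and knockout 1, with the lowest T cell sum, was above each wild-type mouse for Tnf. Markers of NK cells (8 genes, 7 tested, 6 with a positive fold change) summed to 24.8 to 87.0 CPM in wild-type and 29.6, 111 and 224 CPM in knockout mice. Their part in the Tnf level was not tested.

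Oncostatin M was the most abundant member and overlapped fully between the groups. Osm (chromosome 11, 4236420 to 4241026) stood at 468, 909, 372 and 655 CPM in wild-type animals 1 to 4, against 682, 435 and 508 CPM in knockout animals 1 to 3. All 3 knockout values lay inside the wild-type range. Its log2 fold change came to -0.15 (SE 0.31, edgeR adjusted p = 1.00), and it was 0.12 without wild-type 2, which held the highest value. Neutrophils are another known source of Osm; of 10 neutrophil markers 7 were tested, 6 with a negative fold change, and their sum was 143 to 239 CPM in wild-type and 129 to 190 CPM in knockout mice. Ly6g was at 0 in all libraries. Wild-type 2, the highest library for Osm, was also the highest for Retnlg (48.6 CPM), Mmp8 (21.2 CPM), Cxcr2 (16.2 CPM), S100a8 (15.0 CPM) and S100a9 (13.1 CPM). The most abundant markers differed: Csf3r was highest in knockout 2 (181 CPM, against 100 CPM in wild-type 2) and Mmp9 in wild-type 1 (108 CPM). Mmp9 in wild-type 2, at 24.7 CPM, was the lowest of the wild-type mice. Knockout 1, the highest knockout for Osm, was the highest knockout for Cxcr2 (7.21 CPM), S100a8 (6.49 CPM), S100a9 (5.12 CPM), Mmp8 (3.21 CPM) and Mmp9 (40.9 CPM). In the same mouse Csf3r was the lowest of the knockouts (65.7 CPM) and Retnlg was at 0. The part of neutrophils in the Osm level was not tested.

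Lif, whose product maintains stem cells and acts on the same shared receptor chain, lies 16.5 kb from Osm (4257557 to 4272514) and had a different pattern. It stood at 3.08, 1.35, 1.96 and 6.43 CPM in wild-type animals 1 to 4, against 0.410, 1.55 and 2.57 CPM in knockout animals 1 to 3. Wild-type 4 was highest and knockout 1 lowest, with 12 counts, while the other 2 knockout mice lay within the wild-type range. Its log2 fold change came to -1.09 (SE 0.73, edgeR adjusted p = 1.00), and it was -0.64 (SE 0.65) without knockout 1, -0.49 without wild-type 4, -1.71 without knockout 3 and -0.57 with limma voom.

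Il6 (chromosome 5, 30013114 to 30019981), the acute-phase cytokine, was low in these macrophages. Its reads numbered 12, 119, 22 and 45 in wild-type animals 1 to 4, against 0, 17 and 17 in knockout animals 1 to 3, or 0.499, 4.59, 0.730 and 1.64 CPM against 0, 0.692 and 0.625 CPM. Wild-type 2 and wild-type 4 were above the rest, and knockout 2 and 3 lay between wild-type 1 and wild-type 3. Its log2 fold change came to -2.09 (SE 1.21, edgeR adjusted p = 1.00), and it was -1.53 (SE 0.95) without knockout 1, -1.13 without wild-type 2 and -0.96 with limma voom.

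Among the IL-12 family, Ebi3 and Il27, the subunits of IL-27, had the highest values in knockout mice 2 and 3, while knockout 1 lay within the wild-type range. Ebi3 (chromosome 17, 55952640 to 55957022, plus strand) stood at 17.2, 18.6, 34.9 and 13.9 CPM in wild-type animals 1 to 4, against 21.3, 65.7 and 35.1 CPM in knockout animals 1 to 3. Knockout 2 stood highest, and knockout 3 was level with wild-type 3. Il27 (chromosome 7, 126589010 to 126594941, minus strand) stood at 4.53, 10.4, 6.30 and 6.03 CPM in the 4 wild-type animals, against 6.22, 21.1 and 15.2 CPM in the 3 knockout animals. Here wild-type 2 was the highest wild-type mouse, and knockout 2 and 3 exceeded it.

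For Ebi3 the log2 fold change came to 0.94 (SE 0.42, edgeR adjusted p = 0.92, exact permutation p = 0.143). For Il27 it was 1.05 (SE 0.43, edgeR adjusted p = 0.92, exact permutation p = 0.171). Without knockout 1 these became 1.23 (SE 0.38, edgeR adjusted p = 0.31) and 1.39 (SE 0.34, edgeR adjusted p = 0.20). Without knockout 2 they were 0.41 for Ebi3 and 0.65 for Il27. Both genes overlap a gene of the opposite strand, and the use of strand in counting was not stated in the labels. Il27 shares 103 exon bases with Apobr, which held 13297 counts over all libraries against 1848 for Il27. Apobr averaged 77.8 ± 11.6 CPM in wild-type (SD, n = 4) against 60.7 ± 9.71 CPM in knockout animals (SD, n = 3). Ebi3 shares 270 exon bases with the antisense gene Gm16712, which held 480 counts over all libraries against 5520 for Ebi3. The part of opposite-strand reads in the Il27 and Ebi3 levels was not tested.

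The ratio of Ebi3 to Il27 per kilobase was between 1.58 and 4.90, with Ebi3 above Il27 in 7 of 7 libraries. Wild-type animals averaged 2.97 ± 1.49 (SD, n = 4) against 2.61 ± 0.51 in the knockouts (SD, n = 3). The difference in log2 ratio was -0.06 (two-sided exact permutation p = 0.943, 0.943 after Benjamini-Hochberg adjustment over 6 ratios of members, which were chosen with their values known). It was 3.03 in knockout 1, the lowest knockout for both genes, and 2.75 in knockout 2, the highest.

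Il12b, the p40 subunit shared by IL-12 and IL-23, varied 9.44-fold between libraries and overlapped between the groups. Il12b (chromosome 11, 44400063 to 44414033) stood at 6.36, 25.7, 16.5 and 3.87 CPM in wild-type animals 1 to 4, against 10.2, 36.6 and 11.8 CPM in knockout animals 1 to 3. The highest value of each group, wild-type 2 and knockout 2, stood well above the rest of its group. Its log2 fold change came to 0.57 (SE 0.67, edgeR adjusted p = 1.00), and it turned to -0.26 without knockout 2. Leaving out wild-type 4 or wild-type 1 gave 0.24 and 0.31, and leaving out wild-type 2 gave 1.13. Dendritic cells are a known source of p40: 10 of 10 of their markers were tested, 4 with a positive and 6 with a negative fold change, none at 0 in all libraries. Their sum was highest in wild-type 2 (317 CPM, against 65.3 to 131 CPM in the other wild-type and 101 to 139 CPM in the knockout mice), led there by Ccr7 at 170 CPM. In knockout 2, the highest library for Il12b, the sum was 101 CPM, the lowest of the knockouts. Flt3, Zbtb46, Cd209a, Dpp4, Batf3 and Fscn1 were also highest in wild-type 2, while Xcr1, Clec9a and Siglech were highest in a knockout mouse. Xcr1 averaged 6.24 ± 1.91 against 16.7 ± 5.23 CPM and Clec9a 1.80 ± 1.31 against 3.59 ± 0.21 CPM (wild-type against knockout, SD). For both, each knockout was above each wild-type mouse, as in 2.8% of all tested genes. The part of dendritic cells in the Il12b level was not tested.

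The partner subunits of p40 were near detection, and p40 transcripts exceeded those of both partners per kilobase in each library. Il12a (p35; chromosome 3, 68690644 to 68698547) stood at 2, 27, 5 and 39 counts in wild-type animals 1 to 4, against 0, 0 and 1 counts in knockout animals 1 to 3. Wild-type 2 and wild-type 4 held most of its reads, and the groups did not overlap, although wild-type 1 differed from knockout 3 by a single count. Summed over each group, the ratio of knockout to wild-type was 0.0182 (95% exact counting interval 0.000454 to 0.104), an interval that leaves out the spread between mice. Il12a was not tested under the filter on low counts. Without that filter edgeR gave an adjusted p of 0.68, DESeq2 gave 0.087, and the exact permutation p was 0.0571. Groups that did not overlap, with knockout lower, were found in 3.33% of all tested genes. That set passed the filter and leaves Il12a out, and the share among genes with so few counts was not taken.

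The sum of tumour and epithelial markers was also highest in the 2 mice with most Il12a and Il6 reads. It measured 383 CPM in wild-type 2 and 456 CPM in wild-type 4, against 131 and 141 CPM in wild-type 1 and 3, and 172, 44.9 and 83.2 CPM in knockouts 1 to 3. Of 8 such markers 4 were tested, all 4 with a negative fold change, none was at 0 in all libraries and 5 averaged under 1 CPM. Nearly all of the sum was Cdh1, at 375 and 437 CPM in wild-type 2 and 4, while Epcam was 1.61 to 5.30 CPM over the 7 libraries. The other markers set these 2 mice apart. In wild-type 2 Krt8, Krt19 and Cldn4 were at 0 and Krt18 was 0.540 CPM. Lgals4 was lowest there, at 2.97 CPM. In wild-type 4 Krt8, Krt18, Krt19 and Cldn4 were each at their highest, at 2.81, 4.42, 0.731 and 0.768 CPM. The part of tumour or epithelial cells in the Il12a and Il6 levels was not tested.

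Il23a (p19; chromosome 10, 128296139 to 128298752) stood at 7, 15, 9 and 0 counts in wild-type animals 1 to 4, against 2, 10 and 9 counts in knockout animals 1 to 3. Wild-type values ran from 0 to 0.579 CPM and knockout values from 0.0683 to 0.407 CPM, and no difference was detectable at this depth. Il12b exceeded Il23a per kilobase 25.0-fold to 103-fold in the 5 libraries with more than 3 Il23a counts, and exceeded Il12a 2.35-fold to 86.1-fold in the 3 such libraries, all wild-type. The smallest of these ratios was in wild-type 4, where Il12b was lowest and Il12a highest.

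**Figure D2:**
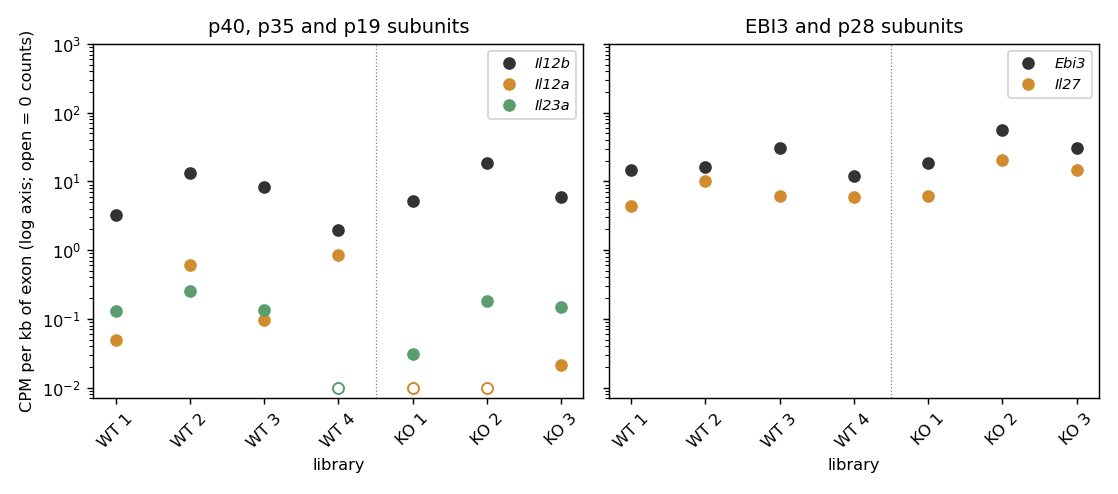
CPM per kilobase of exon (vertical log axis) of the IL-12 and IL-23 subunits Il12b, Il12a and Il23a (left) and the IL-27 subunits Ebi3 and Il27 (right) in each library, WT wild-type and KO knockout, with open symbols for 0 counts. Il12b lies above Il12a and Il23a in all 7 libraries, and Ebi3 above Il27 in all 7, at ratios between 1.58 and 4.90.

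Il10 (chromosome 1, 131019845 to 131024974), the anti-inflammatory member, was higher in 2 knockout mice than in each wild-type mouse and had no reads in the third. Its reads numbered 50, 94, 116 and 91 in wild-type animals 1 to 4, against 0, 203 and 257 in knockout animals 1 to 3, or 2.08, 3.63, 3.85 and 3.33 CPM against 0, 8.26 and 9.45 CPM. With knockout 1 included its log2 fold change came to 0.87 (SE 1.09, edgeR adjusted p = 1.00). Without it, the value was 1.44 (SE 0.33, edgeR adjusted p = 0.17), with an exact permutation p of 0.0667 that is the smallest the 15 splits can give. It was 0.36 without knockout 3 and 0.55 without knockout 2. The 0 in knockout 1 was at a depth where 3 counts equal 0.102 CPM, so the level there was at most about that, for counting error only. Il10 was among the 940 tested genes at 0 in that library, and transcripts lost before sequencing are outside this bound. In the 6 libraries with Il10 reads, the ratio of Tnf to Il10 per kilobase was 6.77 to 10.9 in wild-type mice and 5.56 and 4.40 in knockout 2 and 3. Over all 7 libraries, with the prior count standing in for the missing Il10 reads, the exact permutation p for this ratio was 0.743 (0.891 after adjustment over the 6 ratios).

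Without knockout 1, the groups of 5 members did not overlap. Tnf, Il10, Il27 and Ebi3 were higher in both remaining knockout mice than in each wild-type mouse, where 9.54% of all genes tested were. Il12a was lower, as were 10% of all genes. Knockout 1 was thus the mouse in which Il10, Il27 and Ebi3 did not exceed the wild-type range, and Tnf was the 1 member of these 4 that did so with it included.

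**Figure D3:**
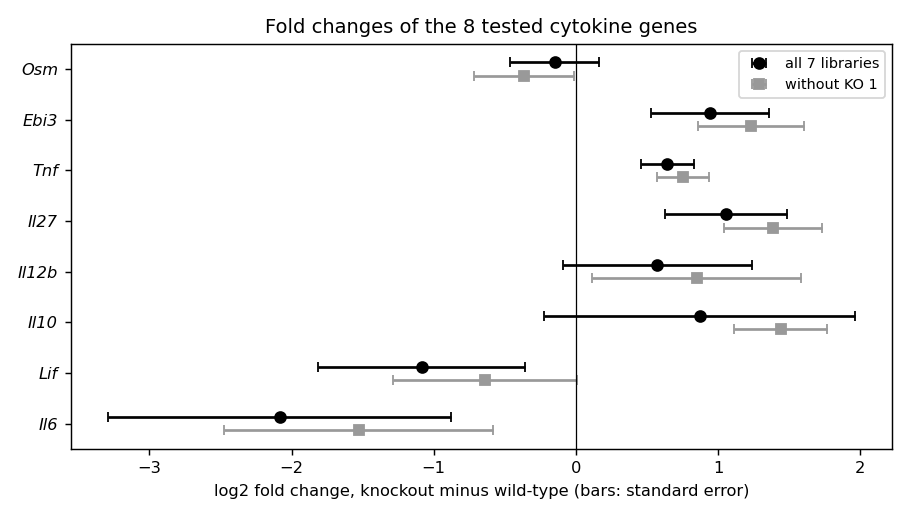
Log2 fold change (horizontal axis, knockout minus wild-type, bars 1 standard error) of the 8 tested cytokine genes in edgeR, black with all 7 libraries and grey without knockout 1. The standard error of Il10 fell from 1.09 to 0.33 when knockout 1 was left out, and Tnf, Ebi3, Il27, Il12b and Il10 lie on the positive side under both.

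Patterns across libraries were compared by the root mean square difference of log2 CPM, each gene centred on its own mean over the 7 libraries. Among the 6 members with at least 10 counts in every library, Tnf and Ebi3 were closest (0.41), followed by Tnf and Il27 (0.48) and Il27 and Ebi3 (0.50), and Il12b and Lif were farthest apart (1.82). These 3 closest pairs are the members with the smallest unadjusted p, and share the libraries compared above. Outside the members, the genes nearest to Tnf were Limk1, Znrf1 and Dnajb4 (0.092 to 0.098, where Tnf itself had an SD of 0.40). Nearest to Il27 were Lmo4, Spon1 and Cd83 (0.17 to 0.20), and nearest to Ebi3 were Mpeg1, Rasgef1b and Ifi44 (0.21 to 0.25). Nearest to Osm were Sdhaf1, Lsm4 and Tbca (0.099 to 0.11). For Il12b the nearest were Chst15, Klf5 and Mycbpap at 0.49 to 0.52, and for Lif Pnma1, BX649560.1 and Eml1 at 0.32 to 0.41. These larger distances go with larger SDs of the members, 1.11 for Il12b and 1.16 for Lif. Genes varying enough to be compared were also fewer, 2272 for Il12b and 2165 for Lif against 7590 for Tnf.

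Among the receptors of these cytokines no gene passed the threshold. Of 12 receptor genes 10 were tested, 8 with a positive and 2 with a negative fold change, with a median log2 fold change of 0.23 that was -0.027 without knockout 3, 0.029 without knockout 2, 0.14 without wild-type 4 and 0.39 without knockout 1. Values for genes of the pathway are wild-type then knockout means in CPM ± SD (n = 4 and n = 3). Il10ra, the ligand-binding chain for IL-10, averaged 387 ± 63.0 against 535 ± 270 CPM, and the TNF receptor Tnfrsf1b 319 ± 39.3 against 354 ± 115 CPM. The shared gp130 chain Il6st averaged 41.7 ± 6.34 against 32.7 ± 4.97 CPM, and the IL-6 receptor Il6ra 83.6 ± 18.8 and 114 ± 21.7 CPM. Lifr averaged 34.0 ± 12.8 against 43.0 ± 12.9 CPM.

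Receptors for the IL-12 group and for oncostatin M gave few reads in the same cells. Il12rb1, needed for IL-12 and IL-23 signalling, had 0 counts in all libraries, which allows up to 0.0995 to 0.125 CPM per library, and Il23r averaged 0.181 CPM. Osmr, the oncostatin M receptor, stood at 0.624, 1.04, 1.73 and 1.50 CPM in the 4 wild-type animals, against 0.239, 0.0407 and 0.368 CPM in the 3 knockout animals. Each knockout mouse was below each wild-type mouse, with a log2 fold change of -2.47 (SE 0.83, edgeR adjusted p = 0.81). Among fibroblast markers, a cell type that carries OSMR, 7 of 8 were tested, 5 with a negative fold change, and the sum was 124 to 333 CPM in wild-type and 51.2 to 302 CPM in knockout mice. Most of this sum was Col3a1 and Dcn. Pdgfrb, a receptor of fibroblasts and pericytes, was low, at 3.76 ± 2.44 against 0.380 ± 0.208 CPM (log2 fold change -3.29, SE 0.73, edgeR adjusted p = 0.66). Like Osmr and 3.33% of all tested genes, it was lower in each knockout than in each wild-type mouse. Within each group the mice stood in another order than for Osmr. The collagen gene Col1a1 averaged 1.18 ± 0.81 against 0.250 ± 0.266 CPM. Pdgfra and Thy1 had positive fold changes, at 3.38 ± 2.59 against 3.61 ± 4.50 CPM and 2.46 ± 2.01 against 4.93 ± 7.45 CPM. No fibroblast marker was at 0 in all libraries, and the part of such cells in the Osmr level was not tested.

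Downstream of these receptors, 0 genes of the pathway lists passed the threshold. Of 11 JAK and STAT genes 5 had a positive and 6 a negative fold change (median -0.06, and 0.094 without knockout 1, 0.073 without wild-type 2, 0.020 without wild-type 3 and 0.15 with limma voom). Stat3 averaged 349 ± 19.1 against 372 ± 108 CPM. Stat6, which carries IL-4 signals, averaged 295 ± 42.0 against 270 ± 77.4 CPM, and the kinase gene Jak2 179 ± 75.1 against 122 ± 28.6 CPM. Of 13 STAT3-induced genes 8 were positive and 5 negative (median 0.017, a value that turned negative with library totals alone, with the block by mouse number and without wild-type 1, 3 or 4 or knockout 2 or 3). The transcription factor gene Junb averaged 2957 ± 827 against 3115 ± 836 CPM, and the feedback inhibitor Socs2 38.5 ± 36.6 against 14.7 ± 6.67 CPM. Socs3, the feedback inhibitor of gp130 signalling, stood at 645, 818, 710 and 776 CPM in the 4 wild-type animals, against 752, 1627 and 1446 CPM in the 3 knockout animals. As for Il27 and Ebi3, knockout 2 and 3 were above all wild-type mice and knockout 1 was within their range (log2 fold change 0.79, SE 0.26, edgeR adjusted p = 0.81). With knockout 1 left out, 9.54% of all tested genes were higher in both remaining knockouts than in each wild-type mouse.

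Genes that release TNF, carry its signal or respond to it did not pass either. Of 6 shedding genes 5 were tested, 4 positive and 1 negative (median 0.16, and 0.0019 with library totals alone, 0.045 without knockout 2, 0.058 without knockout 1, 0.076 without wild-type 4, 0.093 without wild-type 2 and 0.11 without knockout 3), with the TNF sheddase Adam17 at 223 ± 70.1 against 255 ± 119 CPM. Adam10, a related protease, averaged 240 ± 51.8 against 219 ± 62.9 CPM. Frmd8 and Rhbdf1, which belong to the iRhom machinery around ADAM17, averaged 64.5 ± 6.95 against 72.2 ± 5.05 CPM and 12.4 ± 5.73 against 18.2 ± 14.3 CPM. Of 18 receptor signalling genes 17 were tested, 11 positive and 6 negative (median 0.11, and -0.044 with library totals alone and -0.043 without knockout 2, 0.038 without knockout 3 and 0.068 without wild-type 4). Rbck1, a subunit of the linear ubiquitin ligase, averaged 183 ± 17.9 against 190 ± 28.8 CPM and the death protease Casp8 127 ± 6.58 against 122 ± 33.6 CPM. In that list Map3k8, the kinase TPL2 that relays signals towards TNF production, averaged 41.2 ± 4.15 against 57.6 ± 8.59 CPM (log2 fold change 0.48, SE 0.16, edgeR adjusted p = 0.81). Tab2, an adaptor of the TAK1 kinase, averaged 57.1 ± 4.80 against 73.5 ± 6.26 CPM (0.36, SE 0.15, edgeR adjusted p = 0.92). Both had groups that did not overlap, with knockout higher, as in 2.8% of all tested genes. They were named for the smallest p in their list.

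The 14 TNF-induced genes were split, 9 positive and 5 negative with a median of 0.28, which was -0.010 without wild-type 1, 0.064 without knockout 3, 0.17 without knockout 2 and 0.44 without wild-type 2. Vcam1, an adhesion molecule, averaged 51.3 ± 31.9 against 115 ± 82.4 CPM, while the chemokine gene Cxcl2 averaged 409 ± 148 against 252 ± 70.8 CPM. The inhibitor Nfkbia averaged 399 ± 148 against 458 ± 174 CPM. Ier3, an early response gene, averaged 458 ± 294 CPM against 291 ± 111 CPM. Their edgeR adjusted p-values were 0.98 to 1.00.

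Regulators of cytokine transcription and decay did not pass the threshold. Of 20 transcription genes 14 were positive and 6 negative (median 0.09, and -0.027 with library totals alone, 0.050 without wild-type 3 and 0.16 without wild-type 2), with Nfkbiz, a cofactor needed for Il6 and Il12b induction, at 226 ± 111 and 377 ± 143 CPM (log2 fold change 0.74, SE 0.41, edgeR adjusted p = 1.00). Irf8, required for Il12b transcription, averaged 466 ± 27.3 against 619 ± 206 CPM. Atf3, a repressor of Il6 and Il12b, averaged 728 ± 127 against 879 ± 323 CPM, and the activator Cebpb 836 ± 314 against 657 ± 140 CPM. Of 12 mRNA decay genes 7 were positive and 5 negative (median 0.054, and -0.068 with library totals alone, -0.017 with limma voom, -0.070 without wild-type 2 and -0.0035 without wild-type 4; 0.0058 without knockout 3 and 0.17 without wild-type 3). Zfp36l2, a relative of Zfp36, averaged 452 ± 138 against 475 ± 54.9 CPM, and Tnip1, a partner of the deubiquitinase A20, 51.3 ± 6.96 against 62.7 ± 23.0 CPM. Tnip1 and Tnip2 are counted in this list, although they act on NF-kB signalling rather than on mRNA decay. Zfp36, whose protein binds the AU-rich word shown for Tnf, was abundant at 1879 ± 103 and 2209 ± 180 CPM (log2 fold change 0.23, SE 0.17, edgeR adjusted p = 1.00).

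Of 22 related cytokines 12 were tested, 7 positive and 5 negative (median 0.28, and 0.065 without wild-type 1 and 0.11 without knockout 3). Tnfsf13b, which encodes the B cell survival factor BAFF, stood at 42.9, 35.1, 57.7 and 43.7 CPM in the 4 wild-type animals, against 52.7, 171 and 116 CPM in the 3 knockout animals. Knockout 2 and 3 were above all wild-type mice and knockout 1 was not (log2 fold change 1.34, SE 0.35, edgeR adjusted p = 0.73). With knockout 1 left out, 9.54% of all tested genes were higher in both remaining knockouts than in each wild-type mouse. DESeq2 gave Tnfsf13b an adjusted p of 0.042 and it was the 1 pathway gene past the threshold with that tool. Il15, which sustains NK and memory T cells, averaged 10.3 ± 2.08 against 18.3 ± 8.68 CPM (log2 fold change 0.83, SE 0.33, edgeR adjusted p = 0.92). Tnfsf9, which encodes the 4-1BB ligand, averaged 42.8 ± 9.35 against 55.9 ± 17.0 CPM. The gp130 cytokine genes Il11, Ctf1 and Cntf averaged 0.252, 0.330 and 0.0860 CPM over the 7 libraries, and Clcf1, Il31, Il20 and Il24 had 0 counts in all libraries.

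**Figure D4:**
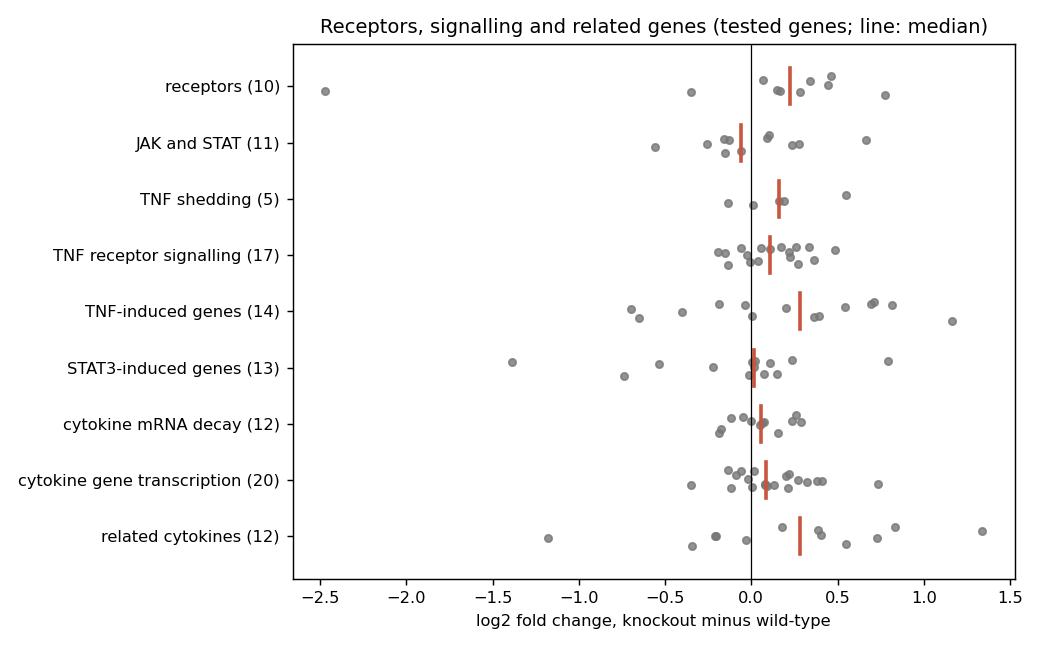
Log2 fold change (horizontal axis, knockout minus wild-type) of each tested gene in the 9 pathway lists, with the number tested in parentheses and a red line at the list median. Medians lie between -0.06 and 0.28, 4 of the positive ones turn negative with library totals alone, and the farthest point is Osmr at -2.47.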

How the data were processed

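RNA was measured in sorted tumour macrophages of 4 wild-type and 3 Gpr65 knockout mice, in polyA libraries made with a SMART-seq kit per the labels' protocols. The authors deposited a table of raw read counts per gene. Per the submitters' processing notes, which give no role or order, the tools included BWA 0.7.12, cutadapt 1.15, DESeq2 1.24.0 and FastQC 0.11.5, with the build GRCm38. The counting program and its use of strand are not given in the sources used here. BWA aligns without splicing, so junction reads may be undercounted if it was the aligner. Depth was 22449772 to 30483733 counts per library, and no columns were left unused.

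Genes were named by identifier from GENCODE M21 (53274 of 53379 matched). edgeR 4.0.16 under R 4.3.3 was used with TMM scaling, the default filter, robust quasi-likelihood tests, an intercept and genotype, and Benjamini-Hochberg adjustment at 0.05. The 105 identifiers without a symbol (0.000338% of counts) were kept by identifier. Values are TMM-scaled CPM, and permutation tests used log2 CPM with a prior count of 2. Alternatives were other scalings, filters, DESeq2 1.42.0, limma 3.58.1 voom, a block by mouse number and leaving out each library. In simulated counts for the same 16234 genes edgeR called 17 of the 100 with a 2-fold and 65 of the 100 with a 4-fold change, and 3 of its 85 calls were false. The changed genes were drawn only from those with a mean above 1 CPM, so recovery at lower levels was not measured. The common biological coefficient of variation between mice was 42.9%.

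Members and lists were chosen with earlier results of these data known. The naming rule took all members, Gpr65, and of each pathway list up to 4 genes past the threshold or, where none passed, the 2 highest and the 2 with the smallest p. It also took the 3 genes of nearest pattern for each member with at least 10 counts in every library. 1 gene that the rule takes is not reported here. Other named genes, the ratios between members, the word searches and the removal of symbols ending in -ps from the nearest patterns were chosen after values were seen. Within each group all pairs of libraries differed by more than sampling noise (chi-square per degree of freedom 27.2 to 297), and each counted as 1 sample.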

Additional observations from a re-analysis of the deposited data

Results flagged for a closer look

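The summed level of mast cell and basophil markers had a mouse far from the other wild-type mice. Wild-type 4 stood apart with 5.92 CPM, against 0.04 to 0.33 CPM in wild-type 1 to 3, and its gap to the nearest mouse was 0.95 of the whole range. Tpsb2 made up 4.31 of these CPM. In the 4 wild-type mice 20 such sets of values were examined, and chance flags about 1 in 20. The levels of the 10 cytokine genes gave no such mouse, and a group of 3 is not examined in this way.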

How the results depend on the processing

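No alternative brought a member past the threshold, in 17 settings. The count of all genes past it was 6, and it was 11 without a filter on low counts, 131 with DESeq2, 1 with the mouse number as a replicate block, and 3 to 14 when 1 library was left out (14 without knockout 1 and 3 without knockout 2). The labels do not say whether mice of the same number share a litter or day. The deviations of same-numbered mice correlated at 0.051 to 0.088. Differently numbered mice were not set beside them, so these values cannot decide whether the numbers pair the libraries. The block called 0 members and gave Il10 -0.14 and Adam17 -0.046, against 0.87 and 0.19 without it. The number of members whose groups did not overlap was 2, and 2 to 5 with 1 library left out. Of all tested genes, which leave out Il12a, 2.8% were higher and 3.33% lower in this way. The 5 came without knockout 1, where 9.54% and 10% of all genes did so. Pathway genes past the threshold were 0, and 1 with DESeq2.

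With library totals alone the median of all tested genes moved to -0.11, and Stat3 (-0.053), Rbck1 (-0.070), Junb (-0.052) and Zfp36l2 (-0.070) turned negative, as did the medians of 4 lists with a main median of 0.02 to 0.11. With limma voom Osm was 0.036, Rhbdf1 -0.030, Casp8 0.043 and Zfp36l2 -0.018. Leaving out 1 library gave both signs for Osm (-0.37 to 0.12), Il12b (-0.26 to 1.13), Stat3 (-0.061 to 0.30), Stat6 (-0.31 to 0.075), Adam17 (-0.13 to 0.51), Adam10 (-0.35 to 0.058), Rhbdf1 (-0.33 to 0.87), Rbck1 (-0.043 to 0.16), Casp8 (-0.27 to 0.11), Nfkbia (-0.056 to 0.45), Junb (-0.082 to 0.26), Zfp36l2 (-0.092 to 0.19) and Atf3 (-0.075 to 0.41). The cause was not tested. Tnf (0.51 to 0.76), Il27 (0.65 to 1.41) and Ebi3 (0.41 to 1.27) stayed positive and Il6 (-2.57 to -0.96) and Lif (-1.71 to -0.49) negative in the settings that tested them. Il12a and Il23a rest on few reads (medians of 2 and 9 counts).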
